A study of Danio rerio with 18 samples.

Results

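The genes described here are the motile cilia genes of the zebrafish, Danio rerio, chosen by the letters of their names. They are the rows of the deposited gene count table whose lower-case name begins with foxj1, dnah, dnai, dnaaf, dnal, rsph, tekt, cfap, drc, zmynd10, armc4, lrrc6, ccdc39, ccdc40, ccdc103, ccdc114, ccdc151 or ift. The rule found 61 of the 28870 gene names in the table. It uses no measured value, but it was chosen with earlier results of these data known. The genes found fell into 40 genes of the axoneme, 6 factors that assemble dynein arms, 12 genes of intraflagellar transport (IFT) and 2 copies of the transcription factor foxj1. The remaining name, lrrc66, was taken in by its letters alone and is not known as a cilia gene. Classes were set by name as well, so each cfap gene was counted with the axoneme wherever its product lies. The same letters in capitals matched 22 further names, among them CCDC39 and DNAH2, which the rule left out.

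RNA was sequenced from whole bodies of fish that all carried the stl297 allele of scospondin, whose product makes up most of the Reissner fibre, a thread of protein that runs through the cerebrospinal fluid from the brain into the spinal canal. The series describes the allele as hypomorphic, that is, lowering the gene's function without removing it. Fish called het carried it in a single copy, and maternal zygotic mutants, called MZ here, were mutant offspring of mutant mothers. Each genotype was sampled at 5, 15 and 30 days post fertilisation (dpf) with 3 libraries, which gives 6 groups and 18 libraries, and no fish without the allele was among them. Neither the number of fish in a library nor the clutches are given in the labels, so p-values measure only the spread between these libraries. Parents and clutch cannot be told apart from the genotype.

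Motile cilia beat through dynein motors that stand in rows on the microtubules of the axoneme, the core of the cilium. The motors are put together in the cytoplasm by assembly factors and are carried into the cilium by IFT, the transport system that also builds non-motile cilia. In zebrafish, motile cilia line the brain ventricles, the central canal, the kidney tubules and the nasal pits, and foxj1 genes switch on the motile cilia programme.

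Library totals lay between 10178388 and 17141819 counts, and the 61 genes together held between 0.0196% and 0.0264% of them. Most of these genes were scarce in whole-body RNA. Averaged over all libraries, the median level was 1.27 CPM (counts scaled to library size) for the axoneme genes, 1.02 for the assembly factors and 7.03 for the IFT genes. A mean under 2 CPM was found for 32 of 40 axoneme genes, for 6 of 6 assembly factors and for 1 of 12 IFT genes. Per length, as RPKM, which is CPM per kilobase of the length in the table, the medians were 0.473 for axoneme genes, 0.612 for assembly factors and 3.36 for IFT genes. With whole bodies, fewer ciliated cells and less RNA per cell cannot be told apart in any of the comparisons that follow.

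Within the axoneme class, levels per length spanned the widest range. The highest mean was that of cfap20, at 25.0 RPKM, whose Chlamydomonas counterpart lies at the inner junction of the microtubule doublets. It was followed by cfap36 at 13.2 RPKM and by the dynein light chain gene dnal4b at 9.43 RPKM. The lowest were the heavy chain genes dnah1 at 0.0346 RPKM and dnah11 at 0.0287 RPKM, and the intermediate chain gene dnai2a at 0.0190 RPKM. The heavy chain genes of the dynein arms thus stood at the lower end of the class per length.

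The assembly factors were close to each other in level, apart from dnaaf2, which had no count in any library. Their means were 0.865 RPKM for dnaaf1, 0.779 for dnaaf3, 0.717 for zmynd10, 0.508 for lrrc6 and 0.413 for ccdc103. All of these are needed for dynein arms to be built or docked, as shown in zebrafish and people. Among IFT genes the highest were ift20 at 12.7 RPKM, ift74 at 10.4 RPKM and ift46 at 8.52 RPKM, all of them subunits of the IFT-B complex. The lowest with any count were ift81 at 0.988 RPKM and ift140 at 0.663 RPKM, the latter a subunit of the IFT-A complex. The small GTPase gene ift27 had no count in any library. Of the foxj1 copies, foxj1a stood at 1.51 RPKM and foxj1b at 0.926 RPKM.

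**Figure D1:**
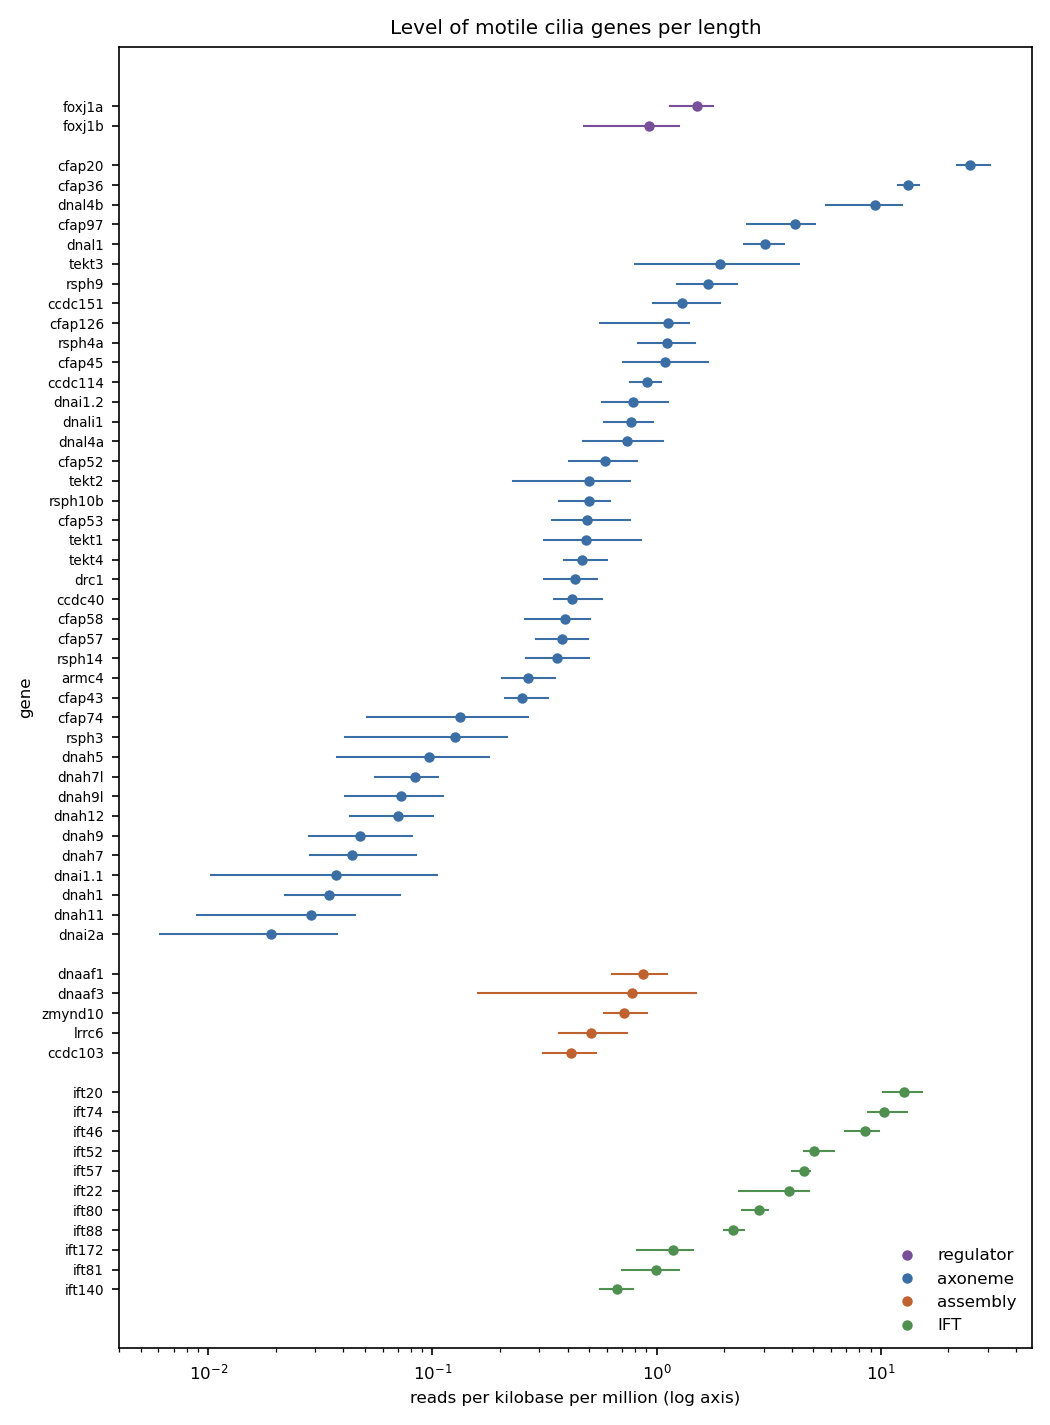
Mean level per length of each motile cilia gene with a count (horizontal log axis, RPKM), grouped by class. Points are means over 18 libraries and lines run from the lowest to the highest of the 6 group means. IFT genes (median 3.36) lie to the right of most axoneme genes (median 0.473), and the dynein heavy chain genes lie at the left.

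The foxj1 genes came first in the comparison of the genotypes, because they switch on the motile cilia programme. In the 5 dpf het libraries foxj1a stood at 7.74, 5.88 and 6.30 CPM, and in the MZ libraries at 6.01, 6.80 and 7.68 CPM. The ranges overlapped at this age and at both later ages. The log2 fold change of foxj1a, MZ over het, was 0.10 (SE 0.18) at 5 dpf, 0.01 (SE 0.20) at 15 dpf and 0.36 (SE 0.24) at 30 dpf, none of them called by edgeR's quasi-likelihood test. For foxj1b it was 0.10 (SE 0.25), -0.36 (SE 0.30) and 0.47 (SE 0.38), also not called at any age. The 95% intervals still allow a difference: at 30 dpf that of foxj1a ran from -0.18 to 0.91 and that of foxj1b from -0.37 to 1.31. Of the 7 measured genes on a list of upstream regulators of multiciliated cells and their cilia, 5 could be tested at 5 dpf. Of these, 2 were called, against 40.7% of all genes tested. Among them rfx3, an RFX transcription factor, was higher in MZ by 0.95 (adjusted p = 0.0263, edgeR), and myb was lower by 0.61 (log2 fold change -0.61, adjusted p = 0.00246).

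At 5 dpf few of the motile cilia genes differed between the genotypes. Of 54 genes tested, 5 were called at an adjusted p under 0.05, 1 higher in MZ (dnaaf3) and 4 lower (tekt3, tekt1, cfap74 and ift20). Over all 19779 genes tested 40.7% were called, 21.1% higher and 19.6% lower. Low counts make calls rarer, so the share was also read by level, in bands chosen after the data were seen. Among genes with a mean under 2 CPM, 3 of 33 motile cilia genes were called, against 26.4% of all such genes. From 2 to 10 CPM it was 1 of 16 against 37.2%, and at 10 CPM or more 1 of 5 against 48.4%.

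The called axoneme genes at 5 dpf were all lower in MZ. The largest in level was tekt3, a gene of the tektins, filament proteins inside the microtubule doublets. It measured 7.48, 8.53 and 6.996 CPM in the het libraries and 2.95, 4.42 and 3.84 CPM in the MZ libraries. Every het library lay above every MZ library, with a mean of 7.67 ± 0.783 CPM (SD, n = 3) against 3.74 ± 0.742. The log2 fold change was -0.97 (SE 0.20, adjusted p = 0.00140, edgeR), and it passed the threshold under each alternative processing tried.

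Another tektin gene, tekt1, was measured at 1.11, 1.27 and 1.27 CPM in het and at 0.685, 0.328 and 0.530 CPM in MZ. These values rest on 13 to 20 reads per het library and 4 to 13 per MZ library, and the groups did not overlap. The log2 fold change was -1.10 (SE 0.39, adjusted p = 0.0325, edgeR). The other tektins, tekt2 and tekt4, gave -0.32 (SE 0.35) and -0.12 (SE 0.37) and were not called. The gene cfap74, whose product belongs to the central apparatus of the axoneme, measured 1.89, 0.882 and 1.91 CPM in het and 0.685, 0.819 and 0.662 CPM in MZ. Its groups were apart by little, since the second het library lay just above the highest MZ library, and its log2 fold change was -1.09 (SE 0.37, adjusted p = 0.0300).

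The called IFT gene was ift20, whose product carries membrane proteins from the Golgi to the cilium in mammalian cells. It was at 16.5, 16.1 and 15.8 CPM in het and at 13.2, 11.2 and 11.5 CPM in MZ. The groups did not overlap, and the log2 fold change was the smallest of the called genes, -0.35 (SE 0.13, adjusted p = 0.0371, edgeR). The calls of tekt1, cfap74 and ift20 were lost with DESeq2 (adjusted p = 0.118, 0.0976 and 0.0909). That of ift20 was also lost without the filter on low counts (0.0518), with the replicate number as a block (0.0523) and with a trend on gene length removed (0.09997), and that of tekt1 with the block (0.0521). With 1 library left out, tekt1 and ift20 stayed called only without MZ library 1 (adjusted p = 0.0340 and 0.0289), and cfap74 only without het library 2 or MZ library 2 (0.0122 and 0.0429), while the highest adjusted p among the other omissions was 0.104 for tekt1, 0.112 for ift20 and 0.119 for cfap74.

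The classes were also read as a whole at 5 dpf, called genes included. Of 35 axoneme genes tested, 25 lay below 0 and 10 above, with a median log2 fold change of -0.16, against a median of -0.00 over all genes tested. The 5 assembly factors had a median of -0.01 and the 11 IFT genes a median of -0.09. The 95% interval lay within a 2-fold change either way for 23 of 35 axoneme genes, 2 of 5 assembly factors and 10 of 11 IFT genes, against 13074 of the 19779 genes tested. Within the axoneme, the 9 outer dynein arm genes ran from -0.46 to 0.27 and the 7 genes of the inner arms and the nexin link from -0.74 to 0.68, with no call in either group. The 11 cfap genes had a median of -0.20 with 1 call, the 4 radial spoke genes a median of -0.20 with none, and the 4 tektins a median of -0.65 with 2 calls.

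Summed over the class, axoneme genes measured 127, 124 and 121 CPM in the het libraries at 5 dpf and 105, 101 and 103 CPM in the MZ libraries, without overlap. The summed IFT level overlapped, with 105, 99.96 and 105 CPM in het and 106, 88.1 and 88.9 CPM in MZ. The sums give most weight to the abundant genes such as cfap20 and cfap36. CPM ranges that did not overlap were found for 15 of 54 motile cilia genes at this age, 4 higher and 11 lower in MZ, against 52.2% of all genes tested.

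**Figure D2:**
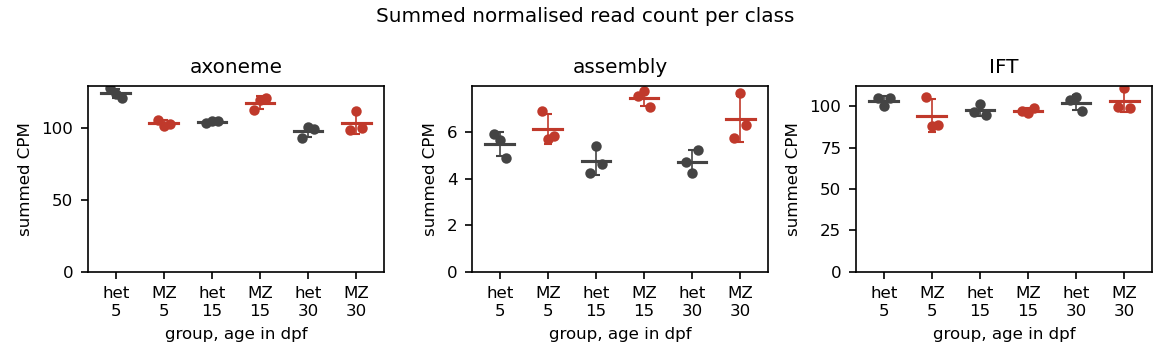
Summed CPM of the 40 axoneme, 6 assembly and 12 IFT genes in each library (points), with the group mean (line) and SD (bars), for het and MZ at 5, 15 and 30 dpf. The axoneme sum of MZ lies below het at 5 dpf (103 against 124) and above it at 15 dpf (117 against 104), while the IFT sums overlap at every age. Sums give most weight to abundant genes such as cfap20.

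Markers of other cells moved between the genotypes at 5 dpf, where 21.1% of all genes tested were higher in MZ and 19.6% lower. All 13 pan-neuronal genes tested were higher in MZ, with a summed level of 647 to 1009 CPM in het and 1438 to 1780 CPM in MZ, and gap43 of that list had no count in any library. Of 20 photoreceptor genes 13 were higher and 2 lower, with sums of 7975 to 10230 CPM in het and 11560 to 12790 CPM in MZ. Of 4 genes of the olfactory epithelium, a tissue with motile cilia, 1 was lower, and the sums were 45.7 to 51.0 CPM in het and 37.9 to 44.5 CPM in MZ. Of 9 genes of radial glia and ependyma 2 were higher and 1 lower. The sums of that list were 1132 to 1307 CPM in het and 1228 to 1551 CPM in MZ. The part of any of these cells in the differences of the cilia genes was not tested.

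The assembly factor dnaaf3 was higher in MZ, and it was so at each age. In het it had 7, 2 and 2 reads at 5 dpf, or 0.455, 0.196 and 0.127 CPM, and in MZ 22, 11 and 23 reads, or 1.16, 0.901 and 1.52 CPM. At 15 dpf the het libraries stood at 0.489, 1.02 and 0.591 CPM and the MZ libraries at 3.08, 1.38 and 1.64 CPM. At 30 dpf they stood at 0.862, 0.849 and 1.26 CPM in het and at 2.05, 2.41 and 2.86 CPM in MZ. The genotypes did not overlap at any of the 3 ages, and MZ library 1 at 15 dpf was the highest of all. Counts this low carry a wide counting error, and the intervals given here cover no more than counting error and the spread between libraries.

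The log2 fold change of dnaaf3 was 2.22 (SE 0.49, adjusted p = 0.00223, edgeR) at 5 dpf, with a 95% interval from 1.19 to 3.25. It was 1.31 (SE 0.30, adjusted p = 0.0485) at 30 dpf, and at 15 dpf the value of 1.57 (SE 0.43) did not pass (adjusted p = 0.0906). The call at 5 dpf held under each alternative tried, with 1.84 to 2.95 when 1 library was left out. The call at 30 dpf was lost on leaving out any library (1.19 to 1.53, adjusted p from 0.0719 to 0.167) and with a trend on gene length removed (adjusted p = 0.0622). The size of the difference was not shown to change with age (interaction adjusted p = 0.521). The other assembly factors were called at no age: dnaaf1 gave 0.44 (SE 0.30), 0.83 (SE 0.38) and 0.14 (SE 0.30) at 5, 15 and 30 dpf.

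**Figure D3:**
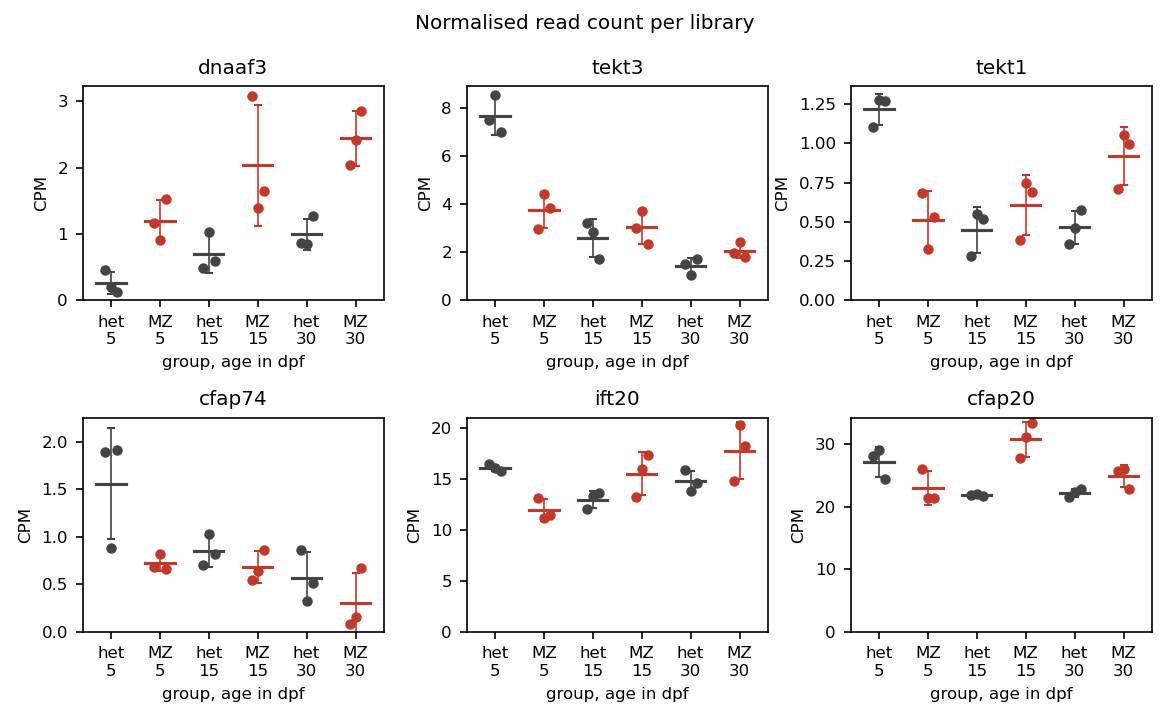
CPM in each library (points) of 6 named genes, with the group mean (line) and SD (bars), for het and MZ at 5, 15 and 30 dpf. The MZ points of dnaaf3 lie above the het points at each age, and the MZ points of tekt3, tekt1, cfap74 and ift20 lie below the het points at 5 dpf.

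At 15 dpf no motile cilia gene was called by edgeR among 48 tested, where 0.886% of all 19306 genes were called, 0.440% higher and 0.445% lower. An unadjusted p under 0.05 in edgeR was reached by 7 of the 48, against 3646 of all 19306 genes. DESeq2 called 1 gene. That gene was cfap20, at 21.8, 22.0 and 21.7 CPM in het and 27.8, 31.2 and 33.4 CPM in MZ. The MZ libraries all lay above the het libraries, whose own spread was small. Its log2 fold change was 0.49 (SE 0.11, adjusted p = 0.0564, edgeR), and it was called at 0.57 (adjusted p = 0.0174) without MZ library 1.

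The medians at 15 dpf were 0.04 for 29 axoneme genes, 0.83 for 5 assembly factors and -0.08 for 11 IFT genes, against -0.01 for all genes tested. Summed assembly factors measured 4.26, 5.43 and 4.65 CPM in het and 7.55, 7.77 and 7.09 CPM in MZ, with no overlap. In that sum dnaaf3 had a mean of 0.701 CPM in het and 2.04 CPM in MZ. Of the 5 assembly factors tested, 3 lay above 0 and 2 below. Summed axoneme genes measured 103, 104 and 105 CPM in het and 112, 119 and 121 CPM in MZ, so MZ lay above het here and below it at 5 dpf. This sum leans on cfap20, whose mean was 21.8 CPM in het and 30.8 CPM in MZ. Of the 29 axoneme genes tested, 15 lay above 0 and 14 below. The 95% interval lay within a 2-fold change for 11 of 29 axoneme genes, 0 of 5 assembly factors and 11 of 11 IFT genes. Over all 19306 genes tested it did so for 15333. The largest IFT difference, that of ift172, was -0.58 (SE 0.19, adjusted p = 0.139).

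At 30 dpf, dnaaf3 was the only call among 46 genes tested, against 3.29% of all 19979 genes (1.10% higher, 2.19% lower). The medians were 0.11 for 27 axoneme genes, 0.21 for 5 assembly factors and -0.01 for 11 IFT genes, and again 11 of 11 IFT intervals lay within a 2-fold change. The axoneme sums overlapped, at 93.0, 100.1 and 98.9 CPM in het and 98.1, 112 and 99.7 CPM in MZ. Of 12 pan-neuronal genes tested at this age 5 were lower in MZ and 0 higher, with sums of 932 to 1224 CPM in het and 642 to 773 CPM in MZ. Over the 3 ages, which share no library, 45 genes could be tested each time, and 9 of them lay above 0 at every age and 8 below. The share of all genes with the same sign at every age was not counted, so these numbers have no background to be read against.

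**Figure D4:**
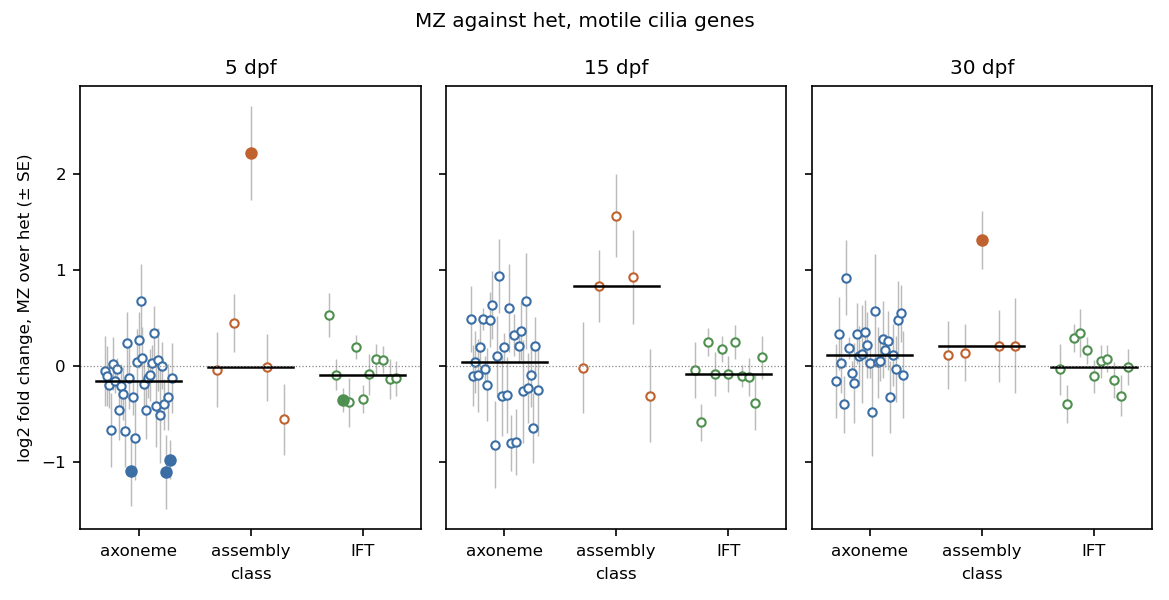
Log2 fold change, MZ over het, with its SE (grey bars), of each axoneme, assembly and IFT gene tested at 5, 15 and 30 dpf. Filled points passed an adjusted p under 0.05 and black lines are class medians. The filled points are tekt1, cfap74, tekt3, dnaaf3 and ift20 at 5 dpf and dnaaf3 at 30 dpf.

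Whether the genotype difference itself changed with age was tested in a fit over all 18 libraries. Of 54 genes tested, 4 were called (cfap20, tekt3, ift20 and tekt1), against 33.3% of all 21191 genes. For tekt3 the log2 difference between MZ and het was higher by 1.26 at 15 dpf and by 1.56 at 30 dpf than at 5 dpf (adjusted p = 0.00503, edgeR). The levels behind this were 2.58 ± 0.787 CPM in het and 3.02 ± 0.696 in MZ at 15 dpf, and 1.43 ± 0.347 and 2.06 ± 0.317 at 30 dpf (SD, n = 3). Het thus had more tekt3 RNA than MZ at 5 dpf, and at the later ages neither difference passed the test.

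For tekt1 the difference was higher by 1.59 at 15 dpf and 2.15 at 30 dpf than at 5 dpf (adjusted p = 0.00979, edgeR). At 30 dpf its MZ libraries measured 0.708, 1.05 and 1.00 CPM and its het libraries 0.359, 0.457 and 0.574 CPM, without overlap. In a fit of that age alone it was too scarce to be tested. Without the filter on low counts, and in a joint fit of all 18 libraries, it was not called at that age. For ift20 the difference was higher by 0.68 and 0.69 (adjusted p = 0.00841), and for cfap20 by 0.73 and 0.40 (adjusted p = 0.00375). With the trend on gene length removed, tekt3 and tekt1 stayed called (adjusted p = 0.00901 and 0.0155) and cfap20 and ift20 did not (adjusted p = 0.0629 and 0.0706).

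Between 5 and 15 dpf in het, some axoneme genes fell. Of 32 axoneme genes tested, 10 were lower, 1 was higher and 21 were not called at 15 dpf, while 0 of 4 assembly factors and 0 of 11 IFT genes were called. Over all 19649 genes tested 39.7% were called, 20.0% lower and 19.7% higher. The medians were -0.37 for axoneme genes, -0.33 for assembly factors and -0.07 for IFT genes, against -0.03 for all genes tested. No assembly factor reached a mean of 2 CPM, which limits what could be detected in that class.

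Among the called falls in het, those of a pair of tektins had the largest log2 fold changes. The mean of tekt3 went from 7.67 to 2.58 CPM (log2 fold change -1.55, SE 0.23, adjusted p = 8.68e-05, edgeR), and that of tekt1 from 1.22 to 0.449 CPM (-1.42, SE 0.40, adjusted p = 0.0114). All 3 libraries at 15 dpf lay below all 3 at 5 dpf for both genes. The other tektins, tekt2 and tekt4, gave 0.03 (SE 0.31) and 0.33 (SE 0.40) and were not called. The heavy chain gene dnah1, too scarce for the test, was called without the filter on low counts (-1.59, adjusted p = 0.0406). Next among the tested genes were cfap45, for a protein inside the doublet microtubules, and dnah12, for an inner arm heavy chain, each with a log2 fold change of -1.22 (SE 0.26 and 0.40). The remaining falls, of genes named after their values were seen, were those of dnah5, dnah9l, cfap52, ccdc151, dnal1 and cfap20, between -1.18 and -0.30. The light chain gene dnal4b rose from 5.92, 5.88 and 6.81 CPM to 8.38, 10.2 and 12.4 CPM (log2 fold change 0.74, SE 0.18, adjusted p = 0.00421).

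The same step in MZ gave 7 calls among 51 genes tested, against 57.0% of all 19768 genes (27.7% higher, 29.3% lower). Higher at 15 dpf were cfap97 by 0.98 (SE 0.17), dnal4b by 0.96 (SE 0.19), cfap20 by 0.39 (SE 0.13) and the IFT-B gene ift22 by 0.92 (SE 0.25). Lower were the inner arm heavy chain gene dnah7, with a log2 fold change of -1.57 (SE 0.43), the outer arm heavy chain gene dnah5, with -1.27 (SE 0.39), and the light chain gene dnal4a, with -1.01 (SE 0.32). The tektin gene tekt3 gave -0.33 (SE 0.26, adjusted p = 0.306) in MZ, and tekt1 could not be tested. The genotype comparison at 5 dpf and the age steps from 5 dpf share libraries.

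These age steps rested on the libraries and on gene length to different degrees. In het, tekt3, cfap45 and dnal4b were called whichever library was left out and with DESeq2, which called no other gene here. The number of calls fell from 11 to 5 without 5 dpf library 1, to 6 without 15 dpf library 1 and to 7 without 15 dpf library 2. In MZ, the rise of cfap20 was 0.06 (adjusted p = 0.693) with the trend on gene length removed, and the falls of dnah7 and dnah5 were no longer called (adjusted p = 0.165 and 0.248). In het, dnah12, dnah5 and dnah9l lost their calls in the same way (adjusted p = 0.0661, 0.0693 and 0.116). The call of cfap20 in het was lost without 5 of the 6 libraries in turn and under 4 of the 7 alternative fits tried. Those of dnah5, dnah9l and dnal1 in het were each lost without 4 of the 6 libraries in turn. In MZ the number of calls was 11 without 15 dpf library 1. The rise of ift22 in MZ was called whichever library was left out (highest adjusted p = 0.0413, edgeR). Its call was lost under 2 of the 7 alternative fits tried. These were the fits with the trend on gene length removed, without and with the replicate block.

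Markers of other ciliated cells moved with age too. In het, 18 of 20 photoreceptor genes were lower at 15 than at 5 dpf, where 20.0% of all genes tested were lower and 19.7% higher. The photoreceptor sums were 7975 to 10230 CPM at 5 dpf and 1319 to 2540 CPM at 15 dpf. Of 4 olfactory genes 2 were lower, with sums of 45.7 to 51.0 CPM and 25.5 to 28.8 CPM. No marker of either list was at 0 in a whole group. Of 9 genes of radial glia and ependyma 3 were lower and 2 higher. The sums of that list were 1132 to 1307 CPM at 5 dpf and 1165 to 1265 CPM at 15 dpf. The part of any of these cells in the change of the cilia genes was not tested.

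**Figure D5:**
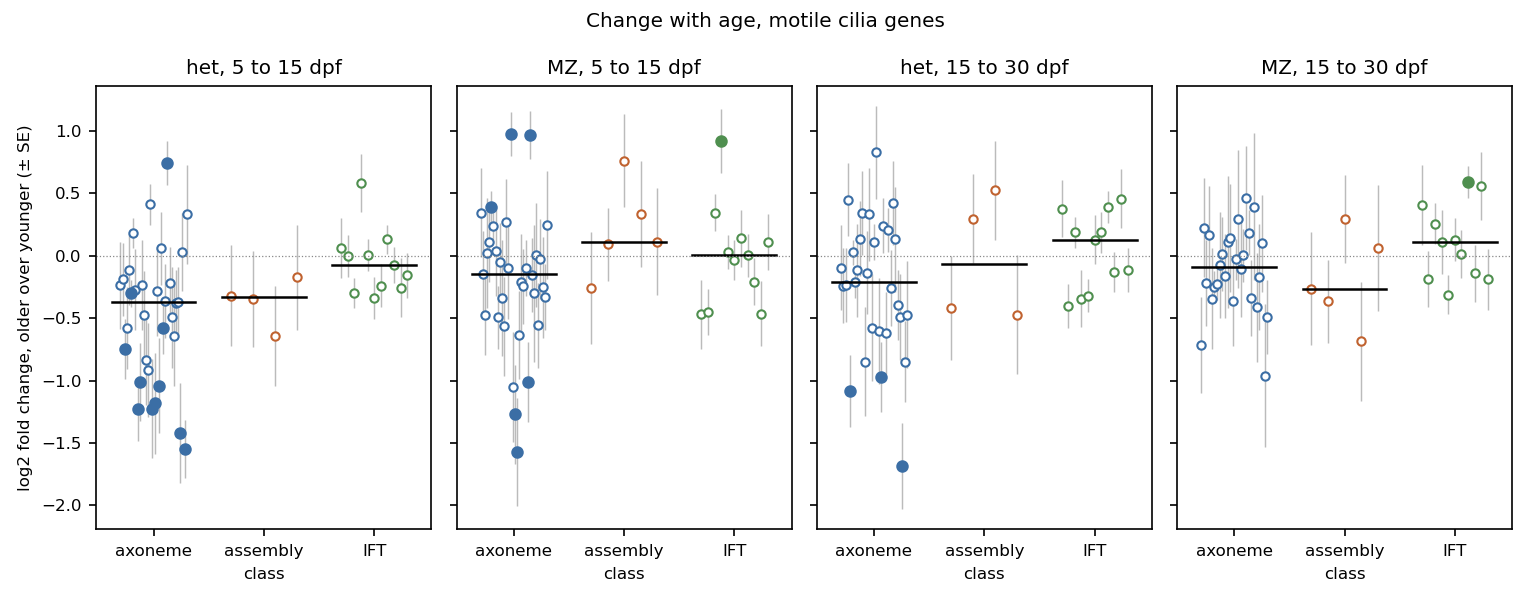
Log2 fold change with age and its SE (grey bars) of each axoneme, assembly and IFT gene tested, older over younger, for het and MZ from 5 to 15 dpf and from 15 to 30 dpf. Filled points passed an adjusted p under 0.05 and black lines are class medians. The axoneme genes of het from 5 to 15 dpf have 10 filled points below 0 and 1 above.

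From 15 to 30 dpf the calls were few. In het 5 of 47 genes tested were called, against 21.5% of all 19910 genes (10.6% higher, 10.9% lower). The tektin gene tekt2 fell from 1.26, 1.65 and 1.70 CPM to 0.431, 0.457 and 0.517 CPM (log2 fold change -1.68, SE 0.35, adjusted p = 0.00509, edgeR), and it was called whichever library was left out. The transcription factor gene foxj1b fell from 2.03, 2.20 and 3.40 CPM to 1.44, 0.653 and 1.21 CPM (-1.21, SE 0.35, adjusted p = 0.0295). All 30 dpf libraries lay below all 15 dpf libraries for both genes, but the foxj1b call was lost without 15 dpf library 3 (adjusted p = 0.121) or 30 dpf library 2 (adjusted p = 0.103).

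The gene cfap126, known as Flattop in the mouse, fell by 1.08 (adjusted p = 0.0206), and dnai1.2, for an outer arm intermediate chain, fell by 0.97 (adjusted p = 0.0279). DESeq2 called neither of them (adjusted p = 0.0601 and 0.0592), and each lost its call without 4 of the 6 libraries in turn. The gene lrrc66, no known cilia gene, was higher at 30 dpf by 1.27 (adjusted p = 0.0127). In MZ 1 of 45 genes was called, against 19.3% of all 19564 genes (10.2% higher, 9.05% lower). This was ift74, which with ift81 forms the tubulin-binding part of IFT-B in Chlamydomonas and human proteins. It rose from 16.95, 18.5 and 18.3 CPM to 24.0, 28.5 and 25.4 CPM, without overlap, and its log2 fold change was 0.59 (SE 0.13, adjusted p = 0.00886). In het its step was 0.39 (SE 0.13, adjusted p = 0.0520).

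Other genes of cilia, from lists of names outside the rule, were read in the same fits. Of 37 further motile cilia genes in the table, 35 were tested at 5 dpf, with a median of -0.15 between MZ and het. Lower in MZ were lrrc48 by 0.70, tctex1d2 by 0.73 and pih1d3, a dynein arm assembly factor in other vertebrates, by 1.53 (log2 fold changes -0.70, -0.73 and -1.53), and none was higher, against 19.6% lower and 21.1% higher over all genes. From 5 to 15 dpf in het, 11 of 33 fell and 1, spag1a, rose, with a median of -0.58, against 20.0% lower and 19.7% higher over all genes. Of 35 further genes of IFT and the primary cilium, 34 were tested at 5 dpf and 4 were higher in MZ, where 21.1% of all genes were higher, among them kif3a and kif3b, subunits of the kinesin that drives IFT, by 0.39 and 0.53, and bbs9 by 0.75. At 15 and 30 dpf no gene of either list was called between the genotypes.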

How the data were processed

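Whole-body RNA of 18 libraries in 6 groups of 3 was analysed. RNA extraction used Trizol and a clean-up column, and libraries a SMARTer kit, per the labels' protocols. The authors deposited raw counts, whole numbers for each gene name. Per the submitters' processing notes the tools were cutadapt, STAR 2.5.4b, Subread and featureCounts 1.6.3 and the build was GRCz10; the settings are not given in the sources used here. How reads shared by gene copies, overlapping genes or strands were counted is not stated, which leaves the values of such genes uncertain, dnah11 and the separate name DNAH11 among them.

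From the counts, genotypes were compared at each age, and ages within each genotype, with edgeR 4.0.16 in R 4.3.3: filterByExpr (minimum count 10), TMM factors, and the quasi-likelihood F test on the 6 libraries compared, with Benjamini-Hochberg adjustment over all genes tested and a threshold of 0.05. CPM used TMM factors over all 18 libraries, and RPKM the deposited length per gene name. Standard errors are the absolute log2 fold change over the square root of F. A 2-degree-of-freedom interaction was fitted over all 18 libraries. The 95% intervals are those of the fit and hold counting error and the spread between libraries. A count of 3 was taken as the floor, which covers counting error only. Library pairs of a group differed by more than counting noise (chi-square over degrees of freedom 4.73 to 16.9).

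The genes, classes, lists and tests were chosen with earlier results of these data known. The text names foxj1a and foxj1b, every called gene between genotypes, up to 3 called rises and falls per class and age step, the 3 highest and 3 lowest per class in RPKM, the 3 smallest interaction p-values, and genes without counts. Named outside this rule, among others, were ift172, ccdc40, the interaction of tekt1 and the further genes so described. These, and the single genes named from other lists or in capitals, were named with their values known. Never abundant enough to test between genotypes were dnaaf2, dnah11, dnah9, dnai1.1, dnai2a, ift27 and rsph3. Alternatives were DESeq2 1.42.0, other factors, no filter, a joint fit, a replicate block, a gene length offset (lowess span 0.3), other name rules and each library left out. Symbols of 57 of 61 genes matched a RefSeq table of another assembly, so no coordinates are given. The values of 1 gene from the lists outside the rule are not reported here.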

Additional observations from a re-analysis of the deposited data

Results flagged for a closer look

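In the interaction test of edgeR over all 18 libraries, the difference between MZ and het changed with age for 4 of 54 genes tested. Over all 21191 genes tested, 33.3% were called. The adjusted p was 0.00375 for cfap20, 0.00503 for tekt3, 0.00841 for ift20 and 0.00979 for tekt1. All 4 stayed called whichever of the 18 libraries was left out. With a trend on gene length removed, the adjusted p was 0.0629 for cfap20 and 0.0706 for ift20, and these were no longer called.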

How the results depend on the processing

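The number of genes called between MZ and het at 5 dpf was 5, and it was 2 with DESeq2, 2 to 4 with 1 library left out, and 3 with the replicate number as a block, with or without the gene length trend removed. At 15 dpf it was 0, and 1 (cfap20) with DESeq2, without the filter and in a joint fit, and 0 to 1 with a library left out. At 30 dpf it was 1, and 0 under the replicate block, the length trend, both together, and each library left out (0 to 0). The age steps gave 11 calls in het from 5 to 15 dpf (3 with DESeq2, 5 to 12 with a library left out), 5 from 15 to 30 dpf (3 with DESeq2, 3 to 4), 7 in MZ from 5 to 15 dpf (4 with DESeq2, 3 with the length trend removed, 3 with the block too, 6 to 11) and 1 from 15 to 30 dpf (3 in a joint fit, 2 with letter case ignored). The interaction gave 4 calls, 2 with the length trend removed and 2 with the block too.

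The axoneme median moved to -0.23 at 5 dpf and 0.12 at 15 dpf in a joint fit, and the IFT median at 15 dpf to -0.017 with the length trend removed. With a library left out, the axoneme median ran from -0.22 to -0.15 at 5 dpf and from -0.0028 to 0.12 at 15 dpf, the assembly median from -0.12 to 0.25 and from 0.36 to 1.07, and the IFT median from -0.077 to 0.023 at 15 dpf and from -0.063 to 0.10 at 30 dpf. The foxj1 values changed sign within their error: foxj1b at 5 dpf to -0.013 without MZ library 2, and foxj1a at 15 dpf to -0.105, -0.053 and -0.0078 without het library 1, MZ library 1 and MZ library 3 (highest 0.094, without MZ library 2). The cause of these changes was not tested.

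Same-numbered libraries did not deviate together (correlations -0.10 to 0.11), so the numbers were not taken as pairs. None of the 37 values of named genes (35 with DESeq2) changed sign under the other fits. Those of foxj1a and foxj1b between genotypes at each age, and of dnaaf3 at 15 dpf, were not called to begin with. Of the remaining values, all called at first, 16 lost the call with DESeq2, 5 under the replicate block and 9 with the length trend removed. The correlation of log2 fold change with log2 length across genes was 0.132, -0.289 and -0.243 between genotypes at 5, 15 and 30 dpf. Depth limits the axoneme and assembly genes most, since most lie under 2 CPM.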

Other observations

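Among the 22 names in capitals that the rule left out were 18 axoneme names, of which 11 could be tested at 5 dpf and 2 were lower in MZ, where 19.6% of all genes tested were lower. The gene CCDC39, for the ruler protein that sets the spacing of inner dynein arms, measured 7.41, 6.27 and 7.70 CPM in het and 4.85, 2.54 and 3.18 CPM in MZ, without overlap (log2 fold change -0.92, SE 0.22, adjusted p = 0.00453, edgeR). It was -0.07 (SE 0.18) at 15 dpf and -0.00 (SE 0.19) at 30 dpf, and its interaction with age was called (adjusted p = 0.0291). Its partner ccdc40 gave -0.66 at 5 dpf and was not called. CFAP77 was lower by 0.82 (log2 fold change -0.82, adjusted p = 0.0391) at 5 dpf.

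Of the further motile cilia genes outside the rule, 8 of 36 tested were called for a change of the genotype difference with age, among them enkur (adjusted p = 0.0145) and ropn1l (adjusted p = 0.0108), both named after their values were seen, against 33.3% of all genes tested. In MZ from 5 to 15 dpf, 13 of 34 further genes of IFT and the primary cilium fell and 1 rose, with a median of -0.41, while the IFT genes of the rule had a median of 0.00. In the same step 10 of 13 pan-neuronal and 14 of 19 photoreceptor genes fell. Over all genes tested in this step 29.3% fell and 27.7% rose. The part of such cells in these changes was not tested.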
